A study of Mus musculus with 8 samples.

Results

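The 7 genes described here belong to the Ms4a family of membrane proteins: Ms4a4b, Ms4a4c, Ms4a6b, Ms4a6c, Ms4a6d, Ms4a7 and Ms4a1. They were taken by symbol from a fixed list. The rule uses no measured value, but the list was chosen with earlier results of these data known. All 7 were present among the 32502 genes listed for 8 Drop-seq libraries. In Drop-seq, each cell shares a droplet with a bead whose oligonucleotides tag the 3′ end of every captured transcript with a cell barcode and a unique molecular identifier (UMI). The libraries came from brains of C57BL/6 mice (C57BL/6N in the methods) that were either wild type (WT, Irg1/Acod1 +/+) or carried a cassette inserted into both copies of Acod1, the gene of the itaconate-producing enzyme (KO, Irg1/Acod1 -/-). For each genotype there was 1 library from naïve brain and 1 from a GL261 tumour at an early (5 to 10 mm3), an intermediate (20 to 25 mm3) and a late stage (30 to 35 mm3). GL261 is a mouse glioma cell line, and the cells were implanted into the right striatum according to the labels and into the frontal cortex according to the methods. Each tumour library held 1 mouse and each naïve library pooled 2 mice, so there was 1 library for each genotype at each stage and no replicate of that combination. The WT mouse was female and the KO mouse male at the early stage, the reverse held at the intermediate stage, and both were male at the late stage, so genotype and sex cannot be told apart at the first 2 stages. For the naïve mice no sex is given.

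MS4A proteins cross the membrane several times and are found mainly in cells of the blood and immune system. Ms4a1 is CD20, the surface marker of B cells that therapeutic antibodies bind. Ms4a4b and Ms4a6b are known from T cells, where their proteins have been found with costimulatory receptors. Ms4a6c, Ms4a6d, Ms4a4c and Ms4a7 are used as markers of monocytes and macrophages, and Ms4a7 separates macrophages of the brain borders and infiltrating macrophages from microglia. In glioma, resident microglia and macrophages that enter from blood monocytes are together called tumour-associated macrophages (TAMs), TAM I and TAM II respectively.

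The genes lie side by side on chromosome 19 of GRCm38, within 355.2 kb from 11249675 to 11604849 that hold 12 protein-coding genes, 11 of them named Ms4a. In order of position they are Ms4a1 (chr19:11249675-11266241, minus strand), Ms4a7 (chr19:11321039-11336146, minus strand), Ms4a4c (chr19:11404770-11427246, plus strand), Ms4a4b (chr19:11443553-11467055, plus strand), Ms4a6c (chr19:11469366-11482192, plus strand), Ms4a6b (chr19:11516512-11531256, plus strand) and Ms4a6d (chr19:11586604-11604849, minus strand). Neighbours therefore did not always share a cell type below: Ms4a4b, highest in lymphocytes, sits between Ms4a4c and Ms4a6c, both highest in macrophages. Sequence likeness also bears on the counts. Transcripts of Ms4a4b and Ms4a4c shared 135 stretches of 50 bases, 71 of them within the last 400 bases where Drop-seq reads fall, Ms4a6b and Ms4a6c shared 117 (8 in the last 400 bases) and Ms4a6b and Ms4a6d 40 (0 there). The remaining 18 pairs shared none. Reads from the shared stretches could have been split between Ms4a4b and Ms4a4c by the counting, so low values of either gene where the other is high are uncertain.

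Both closest pairs differ in the cells that held them while sharing promoter sequence, and the 200 bases upstream of the annotated start are shown for them. RefSeq (GRCm38.p6) gave an entry for 5 of the 7 genes, and there was none for Ms4a1 and Ms4a6d. Capitals mark bases that lie in stretches of at least 12 bases also present in the other window of the pair. Stretches that abut or overlap run together. The run of 32 capitals in Ms4a4b thus matches stretches of 20 and 12 bases in Ms4a4c, which a lower-case base parts there. All 4 are read on the plus strand, from chr19:11443358-11443557 (Ms4a4b), chr19:11407461-11407660 (Ms4a4c), chr19:11518359-11518558 (Ms4a6b) and chr19:11469168-11469367 (Ms4a6c), and the Ms4a4c and Ms4a6b windows fall inside the longer Ensembl gene spans.
Ms4a4b: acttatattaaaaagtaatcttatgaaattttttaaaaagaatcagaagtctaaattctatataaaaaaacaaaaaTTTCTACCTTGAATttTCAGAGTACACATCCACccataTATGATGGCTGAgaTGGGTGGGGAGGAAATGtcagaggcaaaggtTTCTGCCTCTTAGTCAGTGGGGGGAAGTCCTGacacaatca
Ms4a4c: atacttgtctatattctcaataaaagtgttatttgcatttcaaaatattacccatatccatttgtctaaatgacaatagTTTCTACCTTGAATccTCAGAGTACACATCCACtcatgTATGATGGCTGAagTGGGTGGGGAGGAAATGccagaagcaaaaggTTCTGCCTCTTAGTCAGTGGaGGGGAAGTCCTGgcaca
Ms4a6b: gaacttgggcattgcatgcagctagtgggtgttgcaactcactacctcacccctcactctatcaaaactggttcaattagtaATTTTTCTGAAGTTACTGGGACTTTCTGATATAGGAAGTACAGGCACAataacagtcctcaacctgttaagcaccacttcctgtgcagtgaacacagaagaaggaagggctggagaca
Ms4a6c: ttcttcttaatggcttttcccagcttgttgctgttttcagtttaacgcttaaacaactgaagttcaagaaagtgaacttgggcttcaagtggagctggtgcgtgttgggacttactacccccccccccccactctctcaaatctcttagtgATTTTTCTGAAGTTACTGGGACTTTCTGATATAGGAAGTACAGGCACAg
The Ms4a4b and Ms4a4c windows were 74.0% identical, with 92 bases in shared stretches. Aligned end to end, the Ms4a6b and Ms4a6c windows were 49.1% identical, within the 44.3% to 51.4% of the other pairs. They shared 1 unbroken stretch of 48 bases. It lies 118 to 71 bases before the start of Ms4a6b and 49 to 2 bases before that of Ms4a6c. The end-to-end alignment does not line the stretch up at this offset, so 49.1% may understate the likeness of these windows. Of 6 motifs searched on both strands, GAGGAA, a core of the site bound by the myeloid factor PU.1, occurred in Ms4a4b and Ms4a4c and in 18.9% of 27025 promoter windows of the same length, and TATAAA occurred in Ms4a4b (10.6% of windows). TGTGGT (11.3%), the interferon-stimulated response element (2.3%), TTGCGNAA (0.6%) and GGGCGG (31.3%) were in none of the 5. GGAAGT, a core shared by ETS factors that was added after the sequences had been seen, occurred in all 5 and in 16.9% of windows.

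The tables gave 2885345 to 9950713 UMIs per library. After filtering, 5698 cells remained, 454 to 1000 per library with a median of 2597.5 to 5637.5 UMIs, and clustering without the Ms4a genes gave 450 macrophage-like cells (called TAM II in tumours), 377 microglia-like cells (TAM I in tumours), 194 lymphocyte-like cells, 25 dendritic-like cells and 4652 cells of other kinds. All 10 microglia markers and all 10 macrophage markers were detected in the clusters carrying those names, and the microglia list stood at 10690 to 28182 CPM (UMIs per 1000000 UMIs) in microglia-like cells against 1010 to 3069 in TAM II. No neutrophil or B cell cluster was found. A few barcodes recurred between libraries: 1 was found in 7 of them, and 1 more in both late libraries. The targeted gene is no direct check of the labels, since Drop-seq counts 3′ ends and whether the allele with the cassette still yields counted 3′ ends was not tested. In TAMs the libraries labelled WT held 160, 47.6 and 18.6 CPM of Acod1 at the early, intermediate and late stage and those labelled KO 54.3, 11.3 and 59.7. At the late stage the library labelled KO thus held more Acod1 than the one labelled WT, and the genotype differences within TAM I and TAM II are also given without that stage.

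TAM II cells carried 5 of the 7 genes at high levels. Levels are given in CPM, pooled over the 6 tumour libraries unless a library is named, with the share of cells that held at least 1 UMI. Because each molecule is tagged once at its 3′ end, the counts were not divided by gene length, and differences in capture between genes were not measured. In 449 TAM II cells of the tumours Ms4a6c was highest, with 830.5 CPM and 84.6% of cells positive. It was followed by Ms4a7 (460.8 CPM, 48.6%), Ms4a6b (400.4 CPM, 65.5%), Ms4a4c (380.3 CPM, 58.4%) and Ms4a6d (341.5 CPM, 63.7%). Ms4a6c led in 5 of 6 libraries, and the WT intermediate library was led by Ms4a7. Ms4a6b, Ms4a4c and Ms4a6d overlapped across libraries, from 317 to 516 CPM, 274 to 491 CPM and 264 to 412 CPM, so no order among them is given. Ms4a4b (16.3 CPM, 4.90%) and Ms4a1 (4.79 CPM, 10 UMIs in 1 cell) were rare. Cells outside the immune clusters of the same libraries held each of these genes at 0.127 to 6.46 CPM and in 0.101% to 2.20% of cells. Their median was 4314 UMIs against 3266 in TAM II. The library labelled KO late gave 491 of their 857 UMIs of the 7 genes, so these pooled levels were not even over libraries. Whether they came from free RNA or mixed droplets was not tested.

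**Figure D1:**
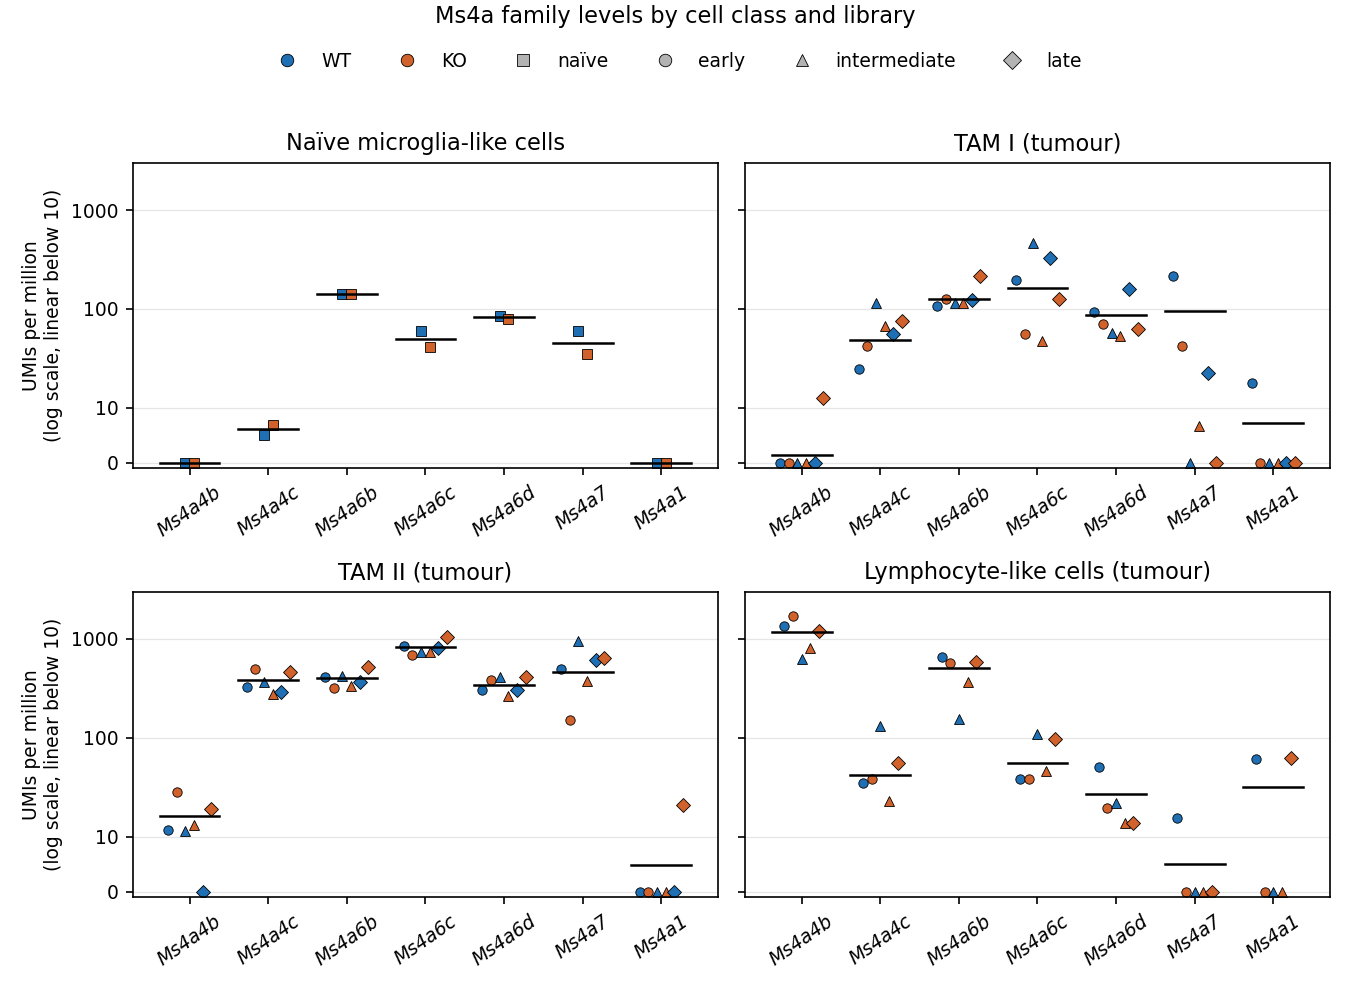
Each point is 1 library with at least 5 cells of the class, coloured by genotype and shaped by stage, and the line is the level pooled over libraries, in CPM (log axis, linear below 10). Ms4a4c, Ms4a6b, Ms4a6c, Ms4a6d and Ms4a7 were high in TAM II, Ms4a4b and Ms4a6b in lymphocyte-like cells, and Ms4a1 was at or near 0 in most libraries.

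Microglia-like cells of naïve brain carried a smaller and differently ordered set. In 200 cells of the 2 naïve libraries Ms4a6b came first at 141.5 CPM (24.0% of cells), before Ms4a6d (82.0 CPM, 16%), Ms4a6c (49.2 CPM, 11%) and Ms4a7 (45.1 CPM, 2.00%). The 2 naïve libraries were close, at 140 (WT) and 142 (KO) CPM for Ms4a6b and 85.0 and 80.0 for Ms4a6d. Ms4a4c was found as 3 UMIs, and Ms4a4b and Ms4a1 as 0 UMIs in 200 cells. All 22 Ms4a7 UMIs fell in 4 cells, 2 in each library, in which markers of border-associated macrophages outnumbered those of microglia. The other 85 WT and 111 KO naïve microglia-like cells held none.

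In TAM I cells of the tumours (177 cells) the same 5 genes were found below their TAM II levels. Ms4a6c stood at 164.6 CPM (30.5% of cells), Ms4a6b at 125.3 CPM (33.3%), Ms4a7 at 96.2 CPM (9.04%), Ms4a6d at 86.0 CPM (22.6%) and Ms4a4c at 48.1 CPM (13.6%). The Ms4a7 level rests on the WT early library, which gave 60 of its 66 UMIs, and it stood at 0 to 42.3 CPM in the other 5 tumour libraries. To set classes of unequal depth side by side, every cell was thinned to 1500 UMIs. Ms4a6c was then found in 65.9% of TAM II, 13.6% of TAM I, 5.00% of naïve microglia-like cells and 7.29% of lymphocyte-like cells. For Ms4a7 the thinned shares were 37.0%, 5.08%, 2.00% and 0.521%.

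Ordered over the classes by library, Ms4a6c was highest in TAM II (688 to 1042 CPM), and its ranges in TAM I (47.1 to 460), lymphocyte-like cells (38.6 to 111) and naïve microglia-like cells (41.7 to 60.0) overlapped. Ms4a6d was highest in TAM II (264 to 412 CPM), overlapped between TAM I (53.8 to 157) and naïve microglia-like cells (80.0 and 85.0), and was lowest in lymphocyte-like cells (13.8 to 50.2). Ms4a4c was highest in TAM II (274 to 491 CPM), overlapped between TAM I (24.9 to 115) and lymphocyte-like cells (23.2 to 133), and was lowest in naïve brain. Ms4a6b in lymphocyte-like cells (155 to 649 CPM) overlapped both TAM II (317 to 516) and TAM I (107 to 214), which did not overlap each other, and naïve microglia-like cells (140 and 142) lay within the range of TAM I. Ms4a4b was at 619 to 1713 CPM in lymphocyte-like cells and at no more than 28.2 CPM in any library of the other 3 classes.

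**Figure D2:**
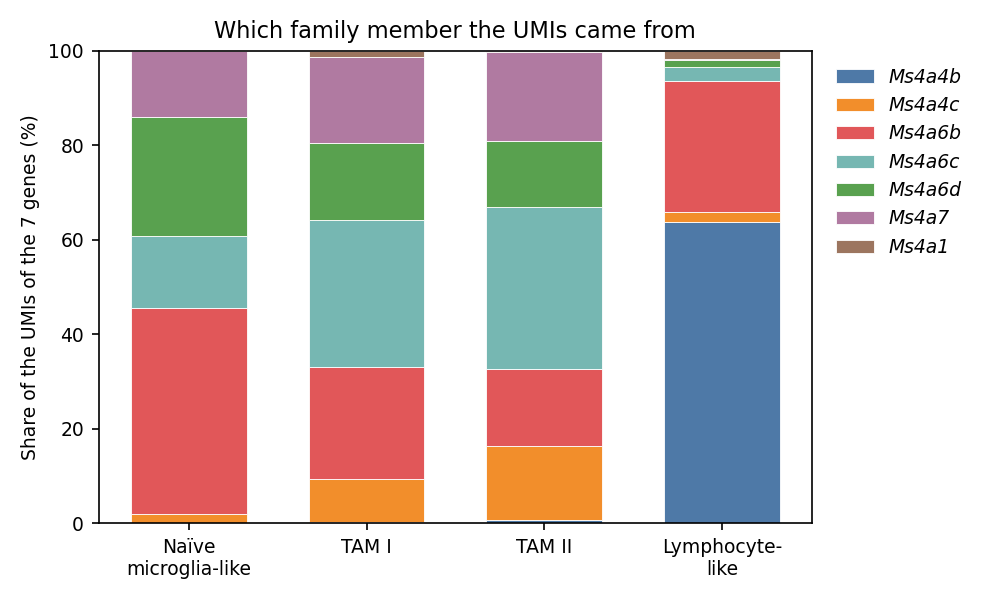
Stacked bars give the percentage of the summed UMIs of the 7 genes that each gene took in a cell class, with the naïve libraries pooled for naïve microglia-like cells and the 6 tumour libraries for the other classes. Ms4a6b took 43.7% in naïve microglia-like cells, Ms4a6c 34.1% in TAM II and Ms4a4b 63.7% in lymphocyte-like cells.

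Counted together, 95.5% of TAM II cells held at least 1 UMI of the 7 genes and 86.0% held at least 2 of the genes. In lymphocyte-like cells these shares were 91.7% and 63.7%, and in TAM I 64.4% and 27.1%. Of naïve microglia-like cells 40% held any of them, and of non-immune cells in tumours 5.96%. After thinning to 1500 UMIs the shares with any gene were 89.8% (TAM II), 82.3% (lymphocyte-like), 41.8% (TAM I), 29.5% (naïve microglia-like) and 2.94% (non-immune).

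The difference between both TAM classes was compared within libraries, since they came from the same mouse and droplet run. Of 3857 genes, 26.9% passed in edgeR (adjusted p under 0.05), and these genes shaped the clusters, whereas the Ms4a genes did not. Of the 7 genes, 5 passed the filter on low counts and 5 were higher in TAM II, while Ms4a4b and Ms4a1 did not pass that filter. The filter keeps a gene that is high in 1 class, so the count of 5 is a description. In the genotype comparison within TAM I only Ms4a6b and Ms4a6c passed it. The p-values of Ms4a4c, Ms4a6d and Ms4a7 below are therefore descriptions as well. Ms4a6c, a monocyte and macrophage gene, stood in TAM II at 842, 742 and 813 CPM (WT early, intermediate, late) and 688, 736 and 1042 CPM (KO), and in TAM I at 196, 460 and 326 CPM (WT) and 56.4, 47.1 and 126 CPM (KO). The 2 classes did not overlap, and the log2 difference was 2.37 ± 0.29 (SE; edgeR adjusted p = 3.19e-06; higher in 6 of 6 libraries).

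Ms4a4c, its neighbour across Ms4a4b, ran from 274 to 491 CPM in TAM II and from 24.9 to 115 CPM in TAM I. Its log2 difference was 2.74 ± 0.26 (edgeR adjusted p = 1.17e-07), again in 6 of 6 libraries. Ms4a6d stood at 264 to 412 CPM in TAM II and 53.8 to 157 CPM in TAM I, a log2 difference of 1.94 ± 0.25 (edgeR adjusted p = 4.67e-06). Ms4a6b showed the smallest difference of the 5, 1.57 ± 0.20 (edgeR adjusted p = 3.97e-06), with 317 to 516 CPM in TAM II and 107 to 214 CPM in TAM I. For each of these genes the lowest TAM II library lay above the highest TAM I library.

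Ms4a7, the macrophage gene absent from most microglia, stood in TAM II at 490, 947 and 616 CPM (WT early, intermediate, late) and 153, 376 and 638 CPM (KO). In TAM I it stood at 213, 0 and 22.5 CPM (WT) and 42.3, 6.73 and 0 CPM (KO). WT early TAM I thus overlapped KO early TAM II, although within each library TAM II was higher, and the log2 difference was 2.97 ± 0.46 (edgeR adjusted p = 4.97e-05). Of the 66 Ms4a7 UMIs in TAM I, 60 came from the WT early library. There, 13 of 64 cells carried them, with a median of 5633 UMIs and 8108 CPM of the macrophage list beside 5393 CPM of the microglia list. The 51 other cells had a median of 2725 UMIs, 2315 CPM of the macrophage list and 12793 CPM of the microglia list. Whether these were droplets holding both cell types was not tested.

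**Figure D3:**
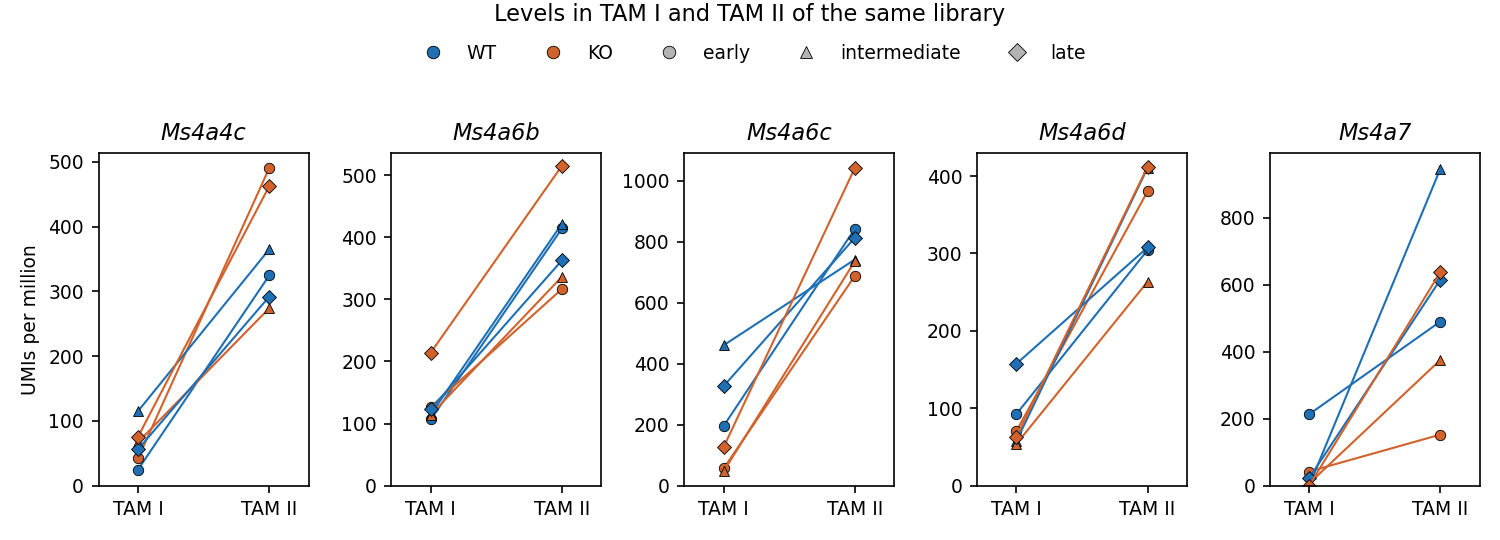
Each line joins TAM I and TAM II of 1 tumour library, in CPM, for the 5 genes tested, with colour for genotype. All lines rose from TAM I to TAM II, from 56.4 to 688 for Ms4a6c in the KO early library and from 196 to 842 in the WT early library, for example.

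Microglia-like cells of tumours were compared with those of naïve brains, with genotype as a covariate, where 16.5% of 3251 genes passed. The 2 groups lay mostly in different clusters: 1 cluster of 203 cells held 84 of 87 WT and 110 of 113 KO naïve cells, and most tumour cells were in 2 clusters of 93 and 81 cells, the latter with no microglia marker among its 10 leading genes. Of the 3 members that passed the filter on low counts, 1 was called. Ms4a6c stood at 60.0 (WT) and 41.7 CPM (KO) in naïve brain and was higher in tumours by 1.59 ± 0.45 on the log2 scale (edgeR adjusted p = 0.0219). The groups overlapped: the 3 WT tumour libraries (196, 460 and 326 CPM) lay above both naïve values, whereas the KO early and intermediate libraries (56.4 and 47.1 CPM, 4 and 7 UMIs) lay among them. The call rested on both naïve libraries, since the difference was 0.76 ± 0.66 (edgeR adjusted p = 0.689) without the WT naïve library and 2.16 ± 0.64 (edgeR adjusted p = 0.104) without the KO one. The summed macrophage list was also higher in tumours. In naïve microglia-like cells it stood at 462 to 465 CPM (3 of 10 markers detected, with Ly6c2, Arg1, Plac8 and others at 0). In TAM I it stood at 1177 to 3962 CPM (1 to 8 of 10 detected). Single markers did not all follow: in TAM I, Arg1 was found in the KO early library only, and Ly6c2 in the WT early, WT late and KO late libraries only. From library to library the list did not follow Ms4a6c. It stood at 1536 and 1177 CPM in KO early and intermediate TAM I, where Ms4a6c lay among the naïve values. In WT early, intermediate and late TAM I it stood at 3962, 1784 and 1901 CPM, against 196, 460 and 326 CPM of Ms4a6c. Without the cells in which the macrophage list outnumbered the microglia list the Ms4a6c difference was 1.48 ± 0.49 (edgeR adjusted p = 0.0409). Any further part of the macrophage markers in it was not tested.

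Ms4a6b and Ms4a6d, the members that led in naïve microglia-like cells, did not pass. Ms4a6b stood at 140 and 142 CPM in naïve brain and 107 to 214 CPM in tumours (log2 difference −0.06 ± 0.33). Ms4a6d stood at 85.0 and 80.0 CPM and 53.8 to 157 CPM (0.06 ± 0.40). Naïve values of both lay inside the range of the tumour libraries. Ms4a4c gave 3 UMIs in 200 naïve cells and 33 in 177 tumour cells, and did not pass the filter on low counts. It was called without that filter (2.97 ± 0.82; edgeR adjusted p = 0.0146) and with at least 10 cells per sum (2.98 ± 0.93; edgeR adjusted p = 0.0346), but not when a naïve library was left out (edgeR adjusted p = 0.243 without WT and 0.335 without KO). Of 11 related genes tested in this comparison, fixed as partners of the family, Fcgr4 (3.64 ± 0.49) and Clec7a (2.85 ± 0.91), receptors of phagocytes, were higher in tumours, and Tmem176a (−1.27 ± 0.41) and Tmem176b (−1.77 ± 0.33), membrane proteins built like MS4A, were lower.

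Genotype was compared within stages. In TAM II 0.11% of 6337 genes passed (7 genes), and 0 of the 5 members tested did. Ms4a7 was lower in KO at the early (153 against 490 CPM; exact 95% Poisson intervals 118 to 195 and 436 to 550) and intermediate stage (376 against 947; 317 to 443 and 754 to 1174) but not at the late stage (638 against 616; 568 to 714 and 487 to 768). The share of Ms4a7-positive cells was 59.5%, 82.4% and 66.7% in WT and 25.0%, 42.7% and 50% in KO. The log2 difference was −0.96 ± 0.35 over the 3 stages (edgeR adjusted p = 0.926) and −1.51 ± 0.37 without the late stage (adjusted p = 0.999). The counting intervals did not overlap at the first 2 stages, but they hold no spread between mice, and the WT intermediate value came from 17 cells. Sex changed with genotype in opposite ways at these 2 stages.

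The other members showed smaller differences in TAM II. The log2 difference of KO to WT was 0.34 ± 0.31 for Ms4a4c, −0.05 ± 0.31 for Ms4a6b, 0.04 ± 0.29 for Ms4a6c and 0.08 ± 0.31 for Ms4a6d. Without the late stage they were 0.12 ± 0.39, −0.37 ± 0.36, −0.16 ± 0.35 and −0.14 ± 0.39 in the same order. Ms4a4c was 325, 365 and 292 CPM in WT and 491, 274 and 463 CPM in KO, which did not order by genotype. The SEs of these 4 differences leave room for differences in either direction.

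In TAM I no gene of 1912 passed (0%; 83 at an unadjusted p under 0.05 in edgeR, and 1 gene in DESeq2, no member), and 0 of 2 members tested did. Ms4a6c nevertheless separated the genotypes: 196, 460 and 326 CPM in WT (55, 8 and 29 UMIs, the second from 5 cells) and 56.4, 47.1 and 126 CPM in KO (4, 7 and 10 UMIs). KO was lower at each of 3 stages, by −2.03 ± 0.49 on the log2 scale (edgeR adjusted p = 0.294). Without the late stage it was −2.54 ± 0.71 (adjusted p = 0.237). The WT early library also held the most macrophage-marker UMIs in TAM I (3962 CPM against 1177 to 1901 in the other tumour libraries), and 9 of its 64 TAM I cells were led by them. Without such cells the WT values were 131, 460 and 218 CPM and the KO values 60.8, 47.1 and 126 CPM, and the difference was −1.62 ± 0.55 (adjusted p = 0.973). Ms4a6b differed by 0.40 ± 0.49 (0.11 ± 0.76 without the late stage), with 107, 115 and 124 CPM in WT and 127, 114 and 214 CPM in KO.

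**Figure D4:**
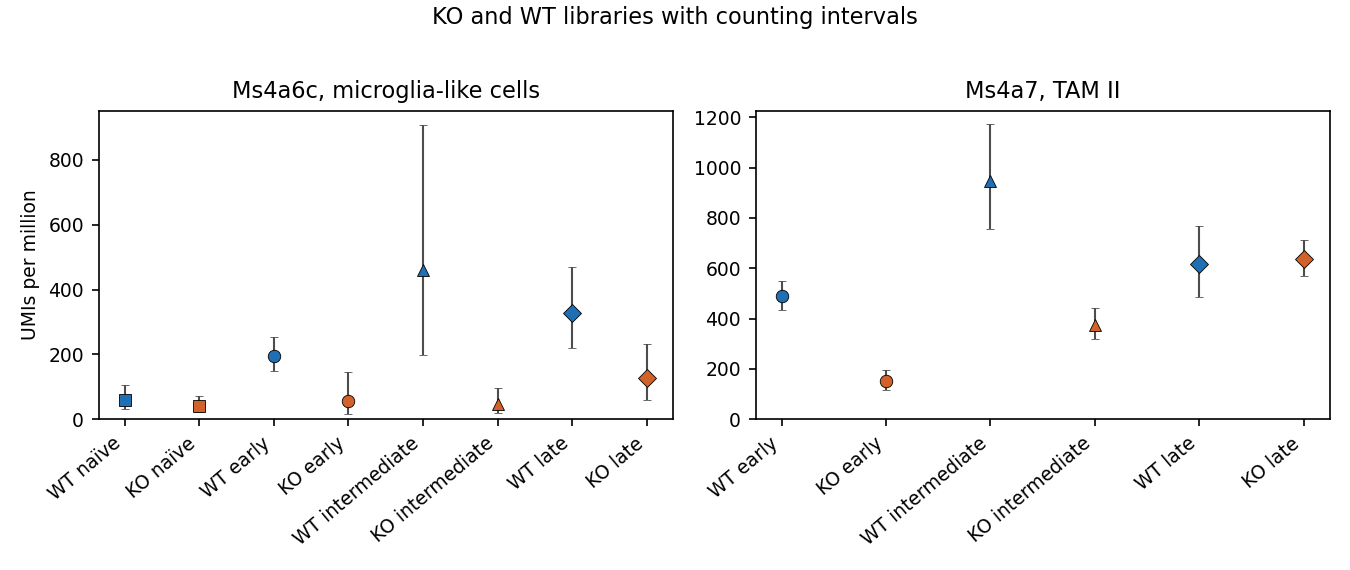
Points are single libraries with exact 95% Poisson intervals, which cover counting error only, in CPM. Left, Ms4a6c in microglia-like cells of 8 libraries, where the 3 WT tumour libraries (196 to 460) lay above the 3 KO ones (47.1 to 126); right, Ms4a7 in TAM II, where KO was lower at the early and intermediate stage and not at the late stage.

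Whether the step from TAM I to TAM II differed between genotypes was tested as an interaction, in which 0.0259% of 3857 genes passed (1 gene) and 0 of 5 members did. The step of Ms4a6c was 1.97 ± 0.46 larger on the log2 scale in KO (edgeR adjusted p = 0.236). It was 2.25 ± 0.54 without the library labelled KO late and 1.78 ± 0.58 without the WT late library (edgeR adjusted p = 0.487 for both). It reached an adjusted p of 0.0477 (edgeR; 2.35 ± 0.53) without the WT early library, and gave 1.44 ± 0.50 (edgeR adjusted p = 1) without the TAM I cells led by macrophage markers. For Ms4a7 the interaction was 2.44 ± 1.10 (edgeR adjusted p = 1), and it turned to −0.44 ± 1.54 without the WT early library. In lymphocyte-like cells, where early and intermediate libraries could be compared, 0% of 3415 genes passed (0 genes in edgeR and in DESeq2, 69 at an unadjusted p under 0.05 in edgeR). The log2 differences of KO to WT were 0.24 ± 0.53 for Ms4a4b and 0.31 ± 0.61 for Ms4a6b.

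Late was compared with early tumours with genotype as a covariate. In TAM II 0.0158% of 6337 genes passed (1 gene) and 0 of 5 members did. Ms4a7 was higher at the late stage in both genotypes, at 616 against 490 CPM in WT and 638 against 153 CPM in KO (1.13 ± 0.43; edgeR adjusted p = 0.867). The difference was 0.24 ± 0.51 without the library labelled KO late and 0.54 ± 0.52 without the KO early library. In TAM I 0.105% of 1912 genes passed (2 genes) and 0 of 2 members did, at 0.79 ± 0.56 for Ms4a6c and 0.36 ± 0.54 for Ms4a6b.

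TAM II cells were not uniform in the family. They were divided by their UMIs of C1qa, C1qb and C1qc, complement genes that mature macrophages and microglia express, at 10 per 10000 UMIs. The division gives ranges of a score and not types, and 23 cells lay between 5 and 20. Of the TAM II cells 358 were C1q-high and 91 C1q-low, and 59.3% to 87.6% were C1q-high by library. Here 9.03% of 2258 genes passed and 2 of 5 members did, in opposite directions.

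Ms4a7 was higher in C1q-high cells. It stood there at 529, 902 and 764 CPM in WT and 171, 411 and 736 CPM in KO, against 79.0, 1124 and 185 CPM (WT) and 65.9, 53.7 and 108 CPM (KO) in C1q-low cells. The WT intermediate library, with only 5 C1q-low cells, went the other way, and the log2 difference was 1.79 ± 0.33 (edgeR adjusted p = 0.00131; higher in 5 of 6 libraries). Ms4a4c was lower in C1q-high cells, at 314, 286 and 212 CPM (WT) and 437, 260 and 398 CPM (KO) against 435, 674 and 524 CPM and 738, 403 and 810 CPM. It was lower in 6 of 6 libraries, by −0.80 ± 0.19 on the log2 scale (edgeR adjusted p = 0.00874).

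At 1500 UMIs per cell 43.3% of C1q-high and 12.1% of C1q-low cells held Ms4a7, and 34.6% and 48.4% held Ms4a4c, from cells with a median of 3554 and 2622 UMIs before thinning. Ms4a6b (0.09 ± 0.19), Ms4a6c (−0.06 ± 0.18) and Ms4a6d (0.05 ± 0.20) did not pass, and Ms4a6c was found in 67.9% and 58.2% of the thinned cells. The Ms4a4c call was lost with another tSNE seed (−0.87 ± 0.25; edgeR adjusted p = 0.0801) and with at least 500 genes per cell (−0.25 ± 0.19; edgeR adjusted p = 0.445), and the Ms4a7 call without the library block (1.61 ± 0.61; edgeR adjusted p = 0.140). Among the partner genes, 4 of 10 tested passed, all higher in C1q-high cells: Trem2 (1.26 ± 0.28), a lipid receptor of phagocytes, and the Fc receptor genes Fcer1g (0.59 ± 0.16), Fcgr3 (0.77 ± 0.21) and Fcgr4 (1.78 ± 0.31). Among the macrophage clusters, 1 of 97 cells had the monocyte genes Ly6c2 and Plac8 among its 10 leading genes, and also Ccl17 of the dendritic list. It held Ms4a4c at 704 CPM and Ms4a7 at 133 CPM, and another cluster (80 cells) held them at 291 and 630 CPM. The larger macrophage clusters of 153 and 120 cells are not given here. These clusters were formed from other genes of the same cells, so this is a description.

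**Figure D5:**
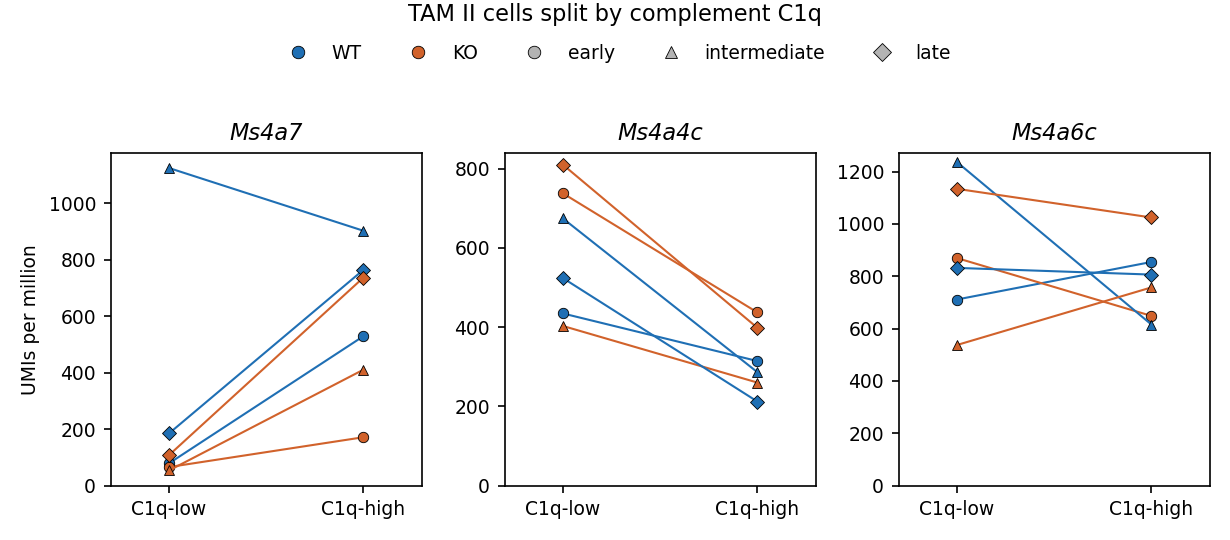
Each line joins the C1q-low and C1q-high TAM II cells of 1 tumour library, in CPM. Ms4a7 rose in 5 of 6 libraries, Ms4a4c fell in 6 of 6, and Ms4a6c did not pass the test (−0.06 ± 0.18 on the log2 scale).

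Lymphocyte-like cells, a cluster led by T cell and cytotoxic genes, expressed a different pair. In 193 cells of the tumours Ms4a4b was the main member at 1182 CPM (77.2% of cells), followed by Ms4a6b at 512.9 CPM (67.9%). By library Ms4a4b stood at 1355 and 619 CPM in WT (early, intermediate) and 1713, 811 and 1196 CPM in KO, with 7 cells behind the lowest value. It was the highest member in 5 of 5 libraries with at least 5 such cells. Ms4a6b stood at 649 and 155 CPM (WT) and 571, 366 and 581 CPM (KO), lower at the intermediate than at the early stage in both genotypes. Ms4a6c (55.1 CPM), Ms4a4c (42.3 CPM), Ms4a1 (32.1 CPM) and Ms4a6d (26.9 CPM) were low, and Ms4a7 was found as 4 UMIs in 1 cell. After thinning, 66.1% of these cells held Ms4a4b and 49.0% Ms4a6b.

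Compared with TAM II within 5 libraries, 40.1% of 6033 genes passed and 6 of 7 members did, 2 higher and 4 lower in lymphocyte-like cells. The filter on low counts keeps a gene that is high in 1 of the classes, so this count is a description. In the genotype comparisons within each class only Ms4a6b passed it in both. The p-values of the other members below are therefore descriptions as well. Ms4a4b was higher by 5.81 ± 0.25 on the log2 scale (edgeR adjusted p = 1.88e-16) and the ranges did not overlap, with 0 to 28.2 CPM in TAM II. Ms4a1 was higher by 2.50 ± 0.87 (edgeR adjusted p = 0.0231), in 2 of 5 libraries, and was not called by DESeq2. Ms4a6c (−4.14 ± 0.25; edgeR adjusted p = 6.36e-14), Ms4a6d (−3.94 ± 0.30; edgeR adjusted p = 7.53e-12) and Ms4a4c (−3.38 ± 0.27; edgeR adjusted p = 2.22e-11) were lower. Ms4a7 had no UMI in the KO lymphocyte-like cells. Set against 3 counts per library, it was at least 5.26-fold (early), 27-fold (intermediate) and 30.8-fold (late) higher in TAM II of these libraries. Ms4a6b was the member that did not pass, with a log2 difference of −0.04 ± 0.21 (edgeR adjusted p = 0.902). In TAM II it stood at 317 to 516 CPM. Its difference between TAM II and TAM I, by contrast, was 1.57 ± 0.20. TAM II held 0 to 154 CPM of the lymphocyte list and lymphocyte-like cells 1432 to 4334 CPM of the macrophage list, against 18406 to 28686 CPM in TAM II itself, and the part of shared RNA in these values was not tested.

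Ms4a1, the CD20 gene, was found in few cells. Over all libraries it gave 44 UMIs in 12 cells, and none of them in naïve brain. Of these cells 5 were lymphocyte-like (25 UMIs), 1 was a TAM II cell of the library labelled KO late (10 UMIs), 2 were TAM I cells of the WT early library (3 and 2 UMIs) and 4 tumour-class cells held 1 UMI each. The 8 immune cells also held 4 to 115 UMIs of the B cell list (Cd79a, Cd79b, Ighm, Igkc and others) and no T cell receptor or CD3 UMI. Over all cells, 88 held at least 5 UMIs of the B cell list, and 7 of these held 38 of the 44 Ms4a1 UMIs. The list is not particular to B cells here, since naïve microglia-like cells held 98 (WT) and 135 UMIs (KO) of it and no Ms4a1. Lymphocyte-like cells were also divided by those T cell UMIs. In 16 cells without any, Ms4a1 gave 25 UMIs (500.8 CPM), and in 177 cells with at least 1 it gave 0 UMIs, which allows a share of up to 1.69% of cells with an Ms4a1 UMI and sets no limit on cells that express the gene. Against 3 counts in the cells with T cell UMIs of the same library, Ms4a1 was at least 128-fold higher in the cells without in WT early and at least 24.0-fold higher in the library labelled KO late, the 2 libraries in which lymphocyte-like cells held it.

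In this division 2.71% of 1587 genes passed, over 2 libraries that held enough cells of both kinds, and 1 of 3 members tested did. Ms4a1, with 0 UMIs in 1 arm, passed in edgeR and not in DESeq2 (adjusted p = 1.00), and its values above are a description. Ms4a4b (1.56 ± 0.53; edgeR adjusted p = 0.0896) and Ms4a6b (2.21 ± 0.71; edgeR adjusted p = 0.0626) were higher in cells with T cell UMIs without passing. Pooled over the tumour libraries, Ms4a4b stood at 1238 CPM in cells with and 361 CPM in cells without T cell UMIs, and Ms4a6b at 537 and 160 CPM. Icos, a costimulatory receptor of T cells, was the partner gene that passed of 6 tested (9.29 ± 1.78). The cells without T cell UMIs gave only 10392 UMIs of all genes in WT early and 16036 in the library labelled KO late. So few UMIs cannot measure a difference of that size. The division itself used T cell genes, so the Icos result is a description as well.

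Members were found in the same cells. In TAM II, Ms4a4c and Ms4a6c were both detected in 243 cells, against 221.7 that their separate shares would give in the absence of any association, and in lymphocyte-like cells Ms4a4b and Ms4a6b in 110 against 101.1. Deeper cells hold more UMIs of every gene, so a small excess is no finding. Over 75 sums of a library and cell class, the members most alike were Ms4a6c and Ms4a6d (Pearson r = 0.912 of log2(CPM + 10)) and Ms4a4c and Ms4a6c (r = 0.908), whereas Ms4a4b and Ms4a7 gave r = 0.044. The sums of 1 library share its mouse and depth, and the values are a description. Among 14605 genes outside the family, Ms4a6c was most like Lyz2 (r = 0.924), Wfdc17 and AB124611, Ms4a6d most like Cd14 (r = 0.928), Ccl6 and Cd84, and Ms4a4c most like AB124611 (r = 0.919), Lilrb4a and Cd300lf. Ms4a7 was most like Lyz1 (r = 0.902), F13a1 and Msr1. Ms4a4b was most like the lymphocyte genes Il2rb (r = 0.967), Nkg7 and Skap1, Ms4a6b most like Neurl3 (r = 0.960), Havcr2 and Rac2, and Ms4a1 most like the immunoglobulin gene Igkc, with Cd8b1 (r = 0.675) and Gzma (r = 0.672) next.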

How the data were processed

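The deposited values are UMI counts for each gene and barcode that the authors made with bcl2fastq 2.0, STAR and the Drop-seq pipeline on mm10 (GRCm38), as named in the submitters' processing notes and methods. The STAR version is not given in the sources used here. The counts were not normalized, and each table lists 3000 barcodes. In each library the 1000 barcodes richest in UMIs, genes found in at least 30 cells (18473 genes) and cells with at least 1000 genes were kept. Cells were clustered on 50 principal components without the 9 kept Ms4a genes by tSNE (Rtsne 0.17, perplexity 50) and HDBSCAN (scikit-learn 1.9.0), and clusters were named from marker lists without Ms4a genes. Doublets were kept in the main analysis. For the alternative with doublets removed, Scrublet called 1 to 4 cells in the KO early, intermediate and late libraries. There the 36 to 50 cells with the highest scores were removed instead of the called ones. The rebuilt names can differ from those of the study.

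UMIs were summed per library and class with at least 5 cells and tested with edgeR 4.0.16 (TMM, filterByExpr, quasi-likelihood) at a Benjamini-Hochberg adjusted p of 0.05 over all genes tested, after a run on simulated data in which 200 genes were changed. Each SE beside an edgeR difference was derived from the test, as the absolute log2 difference divided by the square root of the quasi-likelihood F. Classes were compared with the library as a block, genotypes with the stage as a block, and stages and naïve brain with genotype as a covariate. For classes, the p-values measure how the difference between classes varied from library to library. For genotypes, they measure how the difference varied from stage to stage. In tumour against naïve they measure the spread between libraries of different stages, and in late against early the spread left after genotype and stage. Intervals (95%, exact Poisson) and limits from 3 counts cover counting error only. For shares, cells were thinned to 1500 UMIs. Like genes were sought among genes with at least 100 UMIs, also for Ms4a1, which itself had 44. The alternatives were Ms4a genes kept in the clustering, Leiden clustering (leidenalg 0.10.2), another tSNE seed, at least 500 genes per cell, doublets removed (Scrublet, scanpy 1.11.5), sums of at least 10 cells, DESeq2 1.42.0, all genes without a low-count filter, designs without the block or covariate, other limits for the divisions, cells of other marker lists left out, and each library or stage left out. All 7 members and their fixed partner genes were named. The members and lists were chosen with earlier results of these data known. Sequences came from RefSeq (GRCm38.p6) and gene positions from Ensembl (GRCm38).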

Additional observations from a re-analysis of the deposited data

Results flagged for a closer look

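Of 18 groups of 5 or 6 libraries examined, 5 had a highest library that stood apart from the others by more than Dixon's limit. Chance gives about 1 in 20 for normally distributed values. Low counts such as these are not so distributed, so the 5 cannot be set against that rate. Ms4a7 in TAM I stood at 213 CPM in the WT early library and at 0 to 42.3 CPM in the other 5 tumour libraries. Ms4a6d in TAM I stood at 157 CPM in the WT late library (14 UMIs). Ms4a6b in TAM I stood at 214 CPM in the library labelled KO late (17 UMIs). Ms4a6d in lymphocyte-like cells stood at 50.2 CPM in the WT early library. Ms4a1 in TAM II stood at 21.1 CPM in the library labelled KO late and at 0 in the others, and all its 10 UMIs were in 1 cell.

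Barcodes that did not enter the analysis also held UMIs of the family, above the naïve libraries in every tumour library for 3 genes. Ms4a4b had 12.2 CPM there in the lowest tumour library (WT late) against at most 1.29 CPM in naïve libraries. Ms4a4c had at least 12.5 CPM (WT intermediate) against 0. Ms4a6c had at least 28.1 CPM (WT intermediate) against at most 15.7 CPM.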

How the results depend on the processing

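Of 620 values recomputed for 44 results, 552 kept their direction and their side of the threshold, 10 lost a call, 4 gained one and 54 changed sign, all of the last for values that had not passed. All 5 calls between TAM II and TAM I held under each of 17 alternatives, those of Ms4a4c, Ms4a6d and Ms4a7 as descriptions. Members called in tumour against naïve microglia-like cells were 2 with at least 10 cells per sum (Ms4a6c and Ms4a4c) and 0 to 2 with a library left out, in the interaction 0 to 1 with a library left out, in the C1q division 1 with Ms4a genes kept, another tSNE seed, no filter or no library block, and in the T cell division 0 in DESeq2 and 2 without a filter. Ms4a6c in tumours lost its call without a filter (1.51, edgeR adjusted p = 0.0630), and Ms4a4c in the C1q division with Ms4a genes kept (−0.55) and without a filter (−0.49). Ms4a1 against TAM II lost its call in DESeq2 (1.87). With at least 500 genes per cell Ms4a6b (0.58) and Ms4a6d (0.73) passed in the C1q division.

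Log2 differences that changed sign were as follows. In the C1q division Ms4a6b gave −0.0422 at 5 C1q UMIs and −0.16 with another seed, Ms4a6c 0.0128 at 5 C1q UMIs, 0.21 with Ms4a genes kept, 0.0405 with at least 10 cells, 0.48 with at least 500 genes and 0.25 without a filter, and Ms4a6d −0.37 with another seed and −0.0274 without the library block. For KO against WT in TAM II, Ms4a6b gave 0.16 with at least 500 genes and 0.0758 without a filter, and Ms4a6c −0.0114 with another seed. For late against early TAM II, Ms4a6c gave −0.0422 with at least 500 genes, and Ms4a6d 0.0021 with Ms4a genes kept, 0.0406 with another seed and 0.11 without doublets. For lymphocyte-like cells against TAM II, Ms4a6b gave 0.0066 with Ms4a genes kept, 0.0220 with another seed, 0.12 with at least 10 cells, 0.0717 with at least 500 genes, 0.0880 without doublets and 0.0319 without the library block. For KO against WT lymphocyte-like cells, Ms4a4b gave −0.0300 without doublets and Ms4a6b −0.0034 without the stage block. For tumour against naïve, Ms4a6b gave 0.0218 with Leiden clustering, 0.0631 without cells led by macrophage markers and 0.18 without border-associated cells, and Ms4a6d −0.0153 in DESeq2, −0.0010 with Ms4a genes kept and −0.0644 without doublets.

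With a library or stage left out, the interaction ran from −0.67 to 0.39 (Ms4a4c) and −0.44 to 4.19 (Ms4a7), tumour against naïve from −0.30 to 0.0229 (Ms4a6b) and −0.41 to 0.37 (Ms4a6d), KO against WT in TAM II from −0.37 to 0.17 (Ms4a6b), −0.16 to 0.25 (Ms4a6c) and −0.14 to 0.38 (Ms4a6d), late against early from −0.56 to 0.0493 (Ms4a4c), −0.34 to 0.60 (Ms4a6b), −0.15 to 0.46 (Ms4a6c) and −0.38 to 0.24 (Ms4a6d), lymphocyte-like cells against TAM II from −0.21 to 0.12 (Ms4a6b), and the C1q division from −0.0480 to 0.16 (Ms4a6b), −0.21 to 0.0405 (Ms4a6c) and −0.0678 to 0.11 (Ms4a6d). The cause was not tested.

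Counts over all genes moved by more than 1.5 times: 632 without the library block for TAM II against TAM I (main 1037), 1466 likewise for lymphocyte-like cells against TAM II (2417), 22 to 651 with a library left out for tumour against naïve (537), 52 to 520 in the C1q division (204) and 8 to 47 in the T cell division (43). The other ranges were 0 to 9 for the interaction (1), 0 to 76 for KO against WT in TAM II (7), 0 to 17 in TAM I (0), 0 to 10 in lymphocyte-like cells (0), and 0 to 103 and 0 to 36 for late against early TAM II (1) and TAM I (2). Not run, for want of libraries with enough cells, were the lymphocyte-like KO against WT comparison with at least 10 cells or a stage left out, and the T cell division with Ms4a genes kept, doublets removed, at least 10 cells or a library left out. No replicate number links libraries of different genotypes or stages, so libraries were paired only by stage, and classes within a library. With 5 to 64 TAM I cells per tumour library, single UMI counts as low as 4 lie behind genotype values.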

Other observations

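The tables held 14 Ms4a genes, and the 7 not described above were rare. Ms4a4a gave 32 UMIs, 23 of them in TAM II, Ms4a14 29 UMIs (22 in TAM II) and Ms4a8a 11 UMIs (9 in TAM II). Ms4a4d differed from them. Of its 98 UMIs, 73 fell in 52 cells of the tumour class and 21 in 6 of 45 cells with mural or fibroblast markers (70.8 CPM), and 2 in TAM II. Ms4a15 gave 2 UMIs, Ms4a2 gave 1 and Ms4a3 gave 0 in the cells kept.

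Dendritic-like cells, 25 in all, held 1 UMI of Ms4a4c, 1 of Ms4a6c and none of the other members, at a median of 2438 UMIs per cell. In non-immune cells of the library labelled KO late the summed level of the 7 genes was 117 CPM, against 3.2 to 21.8 CPM in the other libraries, and 65.4% of its UMIs were in 10 cells.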
